A study of Mus musculus with 18 samples.

Results

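The suppressors of cytokine signalling (SOCS) family comprises 8 mouse genes, Socs1 to Socs7 and Cish, taken here as the rows of a raw count table whose Ensembl identifier maps to one of those symbols. All 8 were found among 43629 identifiers. Of these, 7 entered the tests, and Cish did not pass the filter on low counts. SOCS proteins are feedback inhibitors of cytokine receptors: an SH2 domain binds phosphotyrosine on a receptor or kinase, and a SOCS box recruits elongins and a cullin to form a ubiquitin ligase. Socs1 and Socs3 also carry a short region that inhibits Janus kinases (JAKs), and Socs1 is best known as the brake on the interferon-γ (IFNγ) receptor. Cish and Socs2 are classical STAT5 targets that restrain growth hormone, prolactin and related receptors, whereas Socs4 to Socs7 have been linked to receptor tyrosine kinase and insulin signalling.

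The data are 3′ mRNA-seq counts from AT3, a mouse mammary carcinoma line grown in culture, in 6 conditions with 3 libraries each. Cells received DMSO vehicle, or A-241 or A-485, which inhibit the acetyltransferase activity of P300 and CBP, for 1 h, and then recombinant mouse IFNγ or no IFNγ for 2 h more, 3 h in all. The groups are DMSO, A-241 (250 nM), A-485 (1000 nM), IFNγ, A-241+IFNγ and A-485+IFNγ. The labels of the combined groups give no inhibitor dose, and the study's methods give these same doses with and without IFNγ. The labels call the triplicates biological and the study's methods call them technical, so the p-values may measure technical spread alone. AT3 is a single line, and in bulk RNA fewer cells expressing a gene cannot be told apart from less RNA per cell. Epithelial markers summed to 806 to 1367 CPM (a gene's counts scaled to library size) in each library, with 8 of 10 above 1 CPM everywhere and Krt19 and Cldn4 near 0. The 8 leukocyte markers summed to 3.70 to 41.8 CPM, with Adgre1 at 0 in every library, and the 5 endothelial markers to 0.573 to 4.12 CPM, with Cdh5 and Tek at 0. The 6 fibroblast markers summed to 3.41 to 10.5 CPM.

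Total counts per library ran from 3417167 to 7856830. At these depths the floor of 3 counts corresponds to 0.382 to 0.878 CPM. The exact binomial intervals on summed counts and the floors cover counting error only, since the reads carry no molecular identifiers. Intervals on the fitted log2 differences also include the spread between libraries. DMSO replicate 3 and IFNγ replicate 2 stood apart from the other 16 libraries. The transcript Gm42418 took 20.1% and 23.0% of their counts, against 7.11% to 16.2% elsewhere. The standard deviation over genes of each library's log2 CPM minus the mean of its group mates was 1.09 and 1.13 in these 2. In the rest it was 0.339 to 0.558, where these 2 were not counted among the mates. Across the 11964 genes tested the departures of the 2 libraries correlated (Pearson r = 0.83, a description, since genes are not independent replicates). The calls and the counts of calls below are therefore given with and without them, and the separations of libraries are over all 18.

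**Figure D1:**
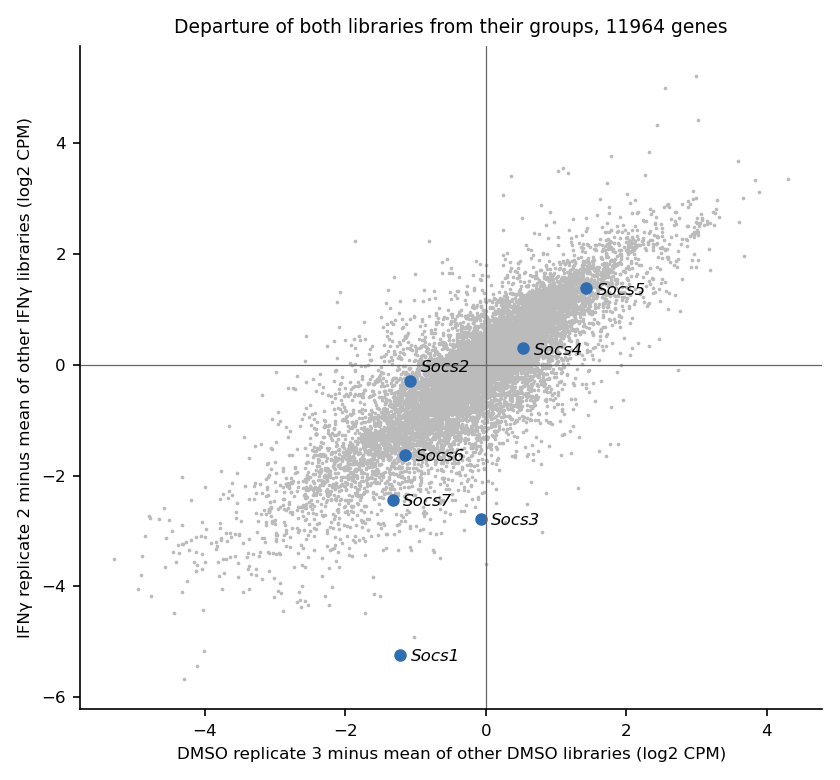
Each point is 1 of 11964 genes, placed by how far DMSO replicate 3 (x axis) and IFNγ replicate 2 (y axis) lay from the mean of their group mates, in log2 CPM, with the 7 tested SOCS genes in blue. Socs5 sits high on both axes (1.43 and 1.38), Socs6 and Socs7 low on both, and Socs1 at -5.24 on the y axis.

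The members shifted with those libraries to different extents. Socs1 in IFNγ replicate 2 was 5.24 log2 units below its group mates, the 0.0167 percentile of all genes (0 being the lowest). Socs3, at -2.78, and Socs7, at -2.43, were also among the low genes there. Socs5 moved the other way, at 1.38 in IFNγ replicate 2 and 1.43 in DMSO replicate 3. In the other 16 libraries Socs5 departed from its group mates by -0.35 to 0.32, with the 2 libraries that stood apart not counted among the mates. The part of this shift in the results was not tested beyond leaving the 2 libraries out.

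Promoter windows are shown for Socs1, the member with the largest IFNγ response, and for Socs4, the member whose condition means varied least, as the 250 bases before the start given by RefSeq (GRCm38.p6). RefSeq entries matched 4 of the 8 members. The windows of the other two, Socs3 and Cish, lie inside the longer GENCODE gene models and are not printed. Both strands were searched for a STAT-type GAS motif, TTCNNNGAA, and for an interferon regulatory factor (IRF) motif, GAAA, any 2 bases, then GAAA. Capitals mark matches.
Socs1, chr16:10785537-10785786, minus strand: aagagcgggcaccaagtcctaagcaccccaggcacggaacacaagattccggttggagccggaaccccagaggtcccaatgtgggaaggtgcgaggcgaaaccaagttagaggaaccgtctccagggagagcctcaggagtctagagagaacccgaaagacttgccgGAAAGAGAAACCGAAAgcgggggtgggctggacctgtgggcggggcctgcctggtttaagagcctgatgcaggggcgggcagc
Socs4, chr14:47276670-47276919, plus strand: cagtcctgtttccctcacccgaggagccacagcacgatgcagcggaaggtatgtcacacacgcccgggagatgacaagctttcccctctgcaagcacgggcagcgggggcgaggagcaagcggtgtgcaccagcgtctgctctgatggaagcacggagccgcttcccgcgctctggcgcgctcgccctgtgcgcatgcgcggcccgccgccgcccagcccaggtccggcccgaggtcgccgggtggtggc
The Socs1 window held 2 IRF matches that overlap each other, at 83 to 74 and 77 to 68 bases before the start, and no GAS match. The Socs4 window held neither. In Socs3 a GAS match, TTCTTAGAA, lay 154 to 146 bases before the RefSeq start. Of 32851 windows of the same length, 7.02% held a GAS match, 2.98% held an IRF match and 0.18% held at least 2 IRF matches. A match is a run of letters and not a measured binding site.

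In the data, Socs1 was the SOCS gene that responded to IFNγ most, 91.3-fold in the fit over all libraries. Socs5 was the one called lower with A-241 over all 18 libraries, a call lost in several of the alternatives given below. With the 2 libraries that stood apart left out, Socs2 was called lower with A-241 too. Calls below are from edgeR's quasi-likelihood test over all 18 libraries at a Benjamini-Hochberg adjusted p under 0.01, and levels are CPM with TMM scaling. With IFNγ alone, 1 of 7 members rose (Socs1) and none fell, where 1.2% of all genes tested were called higher and 0.1% lower. A-241 lowered 1 of 7 (Socs5), against 3.53% of genes lower and 0.827% higher. A-485 alone gave 0 calls in 7 with edgeR, where 0.66% of all genes were called. At an unadjusted p under 0.05 A-485 gave 1 (Socs5; 12.3% of all genes), and DESeq2 and limma-voom gave 0 calls each. The median log2 change of the members was 0.30 with IFNγ, -0.08 with A-241 and -0.02 with A-485, beside -0.00277, 0.01 and -0.00385 over all genes. Contrasts against DMSO share its 3 libraries, and those against IFNγ share its 3.

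**Figure D2:**
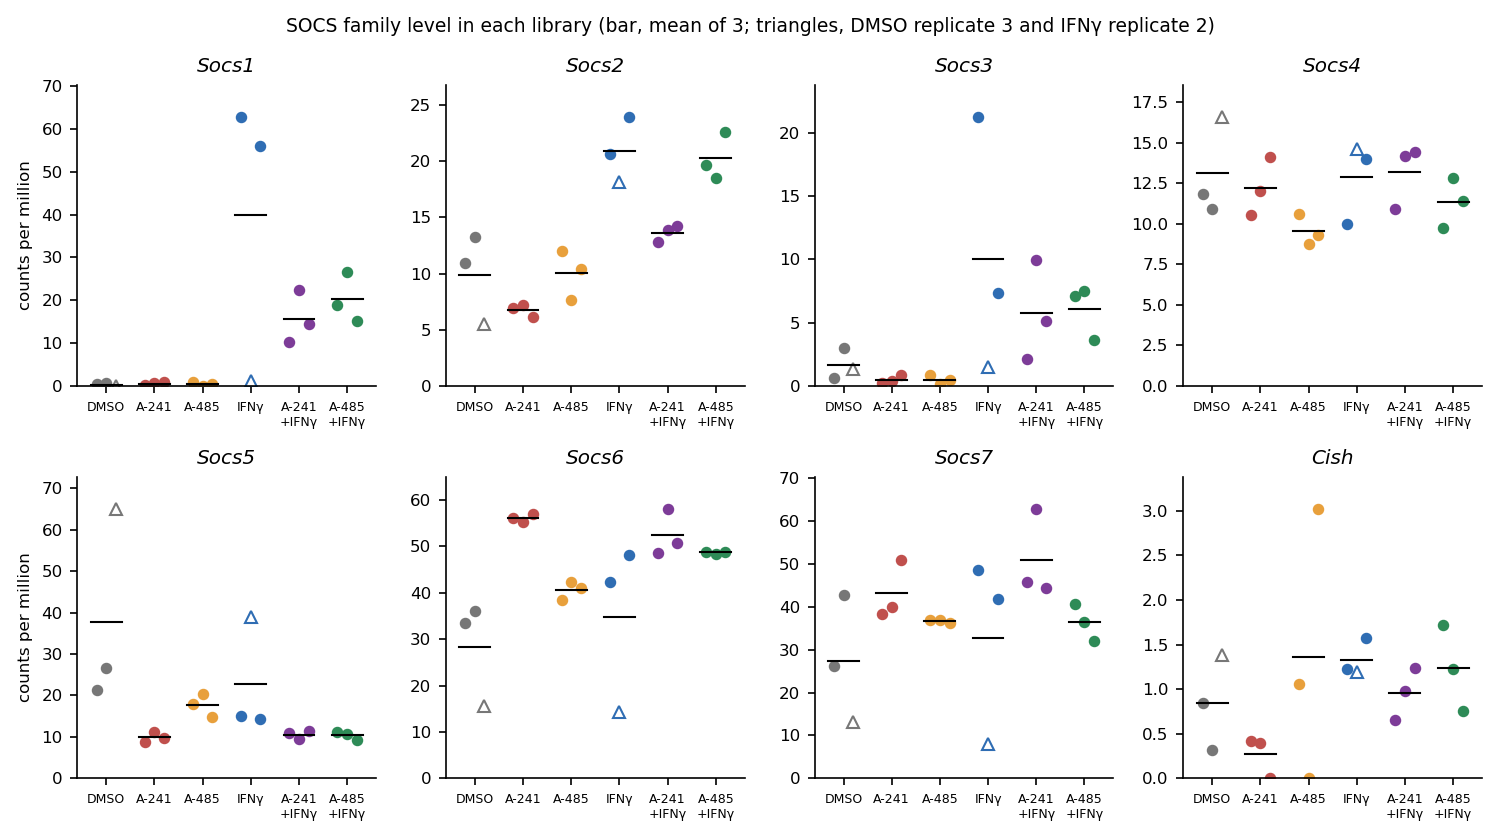
CPM of the 8 members in each of the 18 libraries by condition, with a bar at the mean of 3 and open triangles for DMSO replicate 3 and IFNγ replicate 2. Socs1 and Socs3 are low without IFNγ, and the IFNγ triangle stays at 1.19 CPM for Socs1 while the other IFNγ libraries reach 56.0 and 62.8 CPM.

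Socs1 (ENSMUSG00000038037, chr16:10782240-10785536, minus strand, GRCm38) encodes the JAK inhibitor of the IFNγ receptor. Its level was 0.422, 0.632 and 0 CPM in DMSO and 62.8, 1.19 and 56.0 CPM in IFNγ, in replicate order. IFNγ replicate 2, with 4 counts, lay just above the DMSO libraries, whereas replicates 1 and 3 had 511 and 320 counts. With the inhibitors alone Socs1 stayed within 6 counts of 0, with 0.210, 0.601 and 0.843 CPM in A-241 and 1.06, 0 and 0.465 CPM in A-485. Socs1 rose with IFNγ by 6.51 ± 1.10 on the log2 scale (SE, 95% interval 4.18 to 8.85, adjusted p = 0.00214). Summed over libraries, the ratio of pooled CPM was 113, with an exact binomial 95% interval of 51.7 to 309. The call was absent with limma-voom (5.70, adjusted p = 0.446) and without DMSO replicate 1 (adjusted p = 0.0211) or DMSO replicate 2 (0.0165). It was 6.71 ± 0.52 (adjusted p = 3.9e-08) with the 2 libraries that stood apart left out.

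With an inhibitor present, IFNγ still brought Socs1 well above its level without IFNγ. It stood at 10.2, 22.3 and 14.4 CPM in A-241+IFNγ and at 18.9, 26.7 and 15.2 CPM in A-485+IFNγ, every library above all 9 libraries without IFNγ. Both states were higher than DMSO, by 5.15 ± 1.14 (SE) for A-241+IFNγ (adjusted p = 0.0078) and by 5.51 ± 1.13 for A-485+IFNγ (0.00686). Leaving out any one of the 6 libraries of either contrast moved the adjusted p past 0.01, up to 0.0362 and 0.0373, and limma-voom gave 0.211 and 0.267. Deviations of same-numbered libraries correlated at 0.12 to 0.48 in these contrasts, which does not establish a pairing. With the replicate number as a block the values were 5.17 ± 1.21 (0.0168) and 5.51 ± 1.20 (0.0161), so that neither passed. With DMSO replicate 3 and IFNγ replicate 2 left out the differences were 4.80 (4.71e-06) and 5.14 (2.29e-06). Against the matching inhibitor alone the differences were 4.78 ± 1.07 and 5.21 ± 1.06, with adjusted p of 0.0866 and 0.0161, and neither passed. Both passed with the 2 libraries left out (4.81 ± 0.49, adjusted p = 5.84e-06, and 5.21 ± 0.47, 4.9e-07).

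Whether the inhibitors reduced IFNγ-treated Socs1 rested on IFNγ replicate 2. The 2 other IFNγ libraries, at 56.0 and 62.8 CPM, lay above all 6 combined libraries, which reached 26.7 CPM, and IFNγ replicate 2 lay below them all. Over all libraries Socs1 differed by -1.37 ± 0.70 in A-241+IFNγ (95% interval -2.85 to 0.12, adjusted p = 0.293) and by -1.01 ± 0.69 in A-485+IFNγ (-2.47 to 0.46, 0.516). Without IFNγ replicate 2 alone these became -1.91 ± 0.35 (adjusted p = 0.00212) and -1.57 ± 0.35 (0.0254). With both libraries left out, Socs1 fell by 1.91 on the log2 scale (adjusted p = 8.91e-05) and by 1.57 (0.00169). The IFNγ response itself was not shown to differ with inhibitor, as the interaction was -1.74 ± 1.96 for A-241 (-5.89 to 2.41) and -1.30 ± 1.95 for A-485 (-5.44 to 2.84), and it was not called with the 2 libraries left out either. A-241+IFNγ against A-485+IFNγ (inhibitor doses from the study's methods and not the labels) was -0.36 ± 0.71 (-1.86 to 1.14).

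Socs3 (ENSMUSG00000053113, chr11:117966079-117970047, minus strand) encodes the other JAK-blocking member, which acts chiefly at gp130-type receptors. It was at 0.632, 3.00 and 1.38 CPM in DMSO, 0.210, 0.401 and 0.843 CPM in A-241, and 0.883, 0.191 and 0.465 CPM in A-485. With IFNγ it stood at 21.3, 1.49 and 7.34 CPM, so that 1 IFNγ library fell within the DMSO range. In A-241+IFNγ it was 2.18, 9.95 and 5.16 CPM and in A-485+IFNγ 7.08, 7.54 and 3.61 CPM, each library above all 3 of the matching inhibitor alone. No Socs3 difference passed the test. The estimates were 2.55 ± 0.76 for IFNγ against DMSO (adjusted p = 0.147), 3.54 ± 0.97 for A-241+IFNγ against A-241 (0.271) and 3.47 ± 0.95 for A-485+IFNγ against A-485 (0.116). With the 2 libraries left out these were 2.88 ± 0.64 (0.0109), 3.58 ± 0.78 (0.0271) and 3.48 ± 0.76 (0.0107). Without IFNγ, Socs3 in the inhibitor libraries held 7 and 8 counts over 3 libraries against 26 in DMSO, and differed from DMSO by -1.83 ± 1.14 with A-241 (-4.24 to 0.58) and -1.72 ± 1.11 with A-485 (-4.06 to 0.62). Against IFNγ, Socs3 differed by -0.84 ± 0.65 with A-241 and -0.80 ± 0.65 with A-485 (95% intervals -2.23 to 0.54 and -2.18 to 0.59). Without IFNγ replicate 1 both turned positive, to 0.32 and 0.36, and with the 2 libraries that stood apart left out they were -1.30 ± 0.48 (adjusted p = 0.0838) and -1.28 ± 0.48 (0.105).

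**Figure D3:**
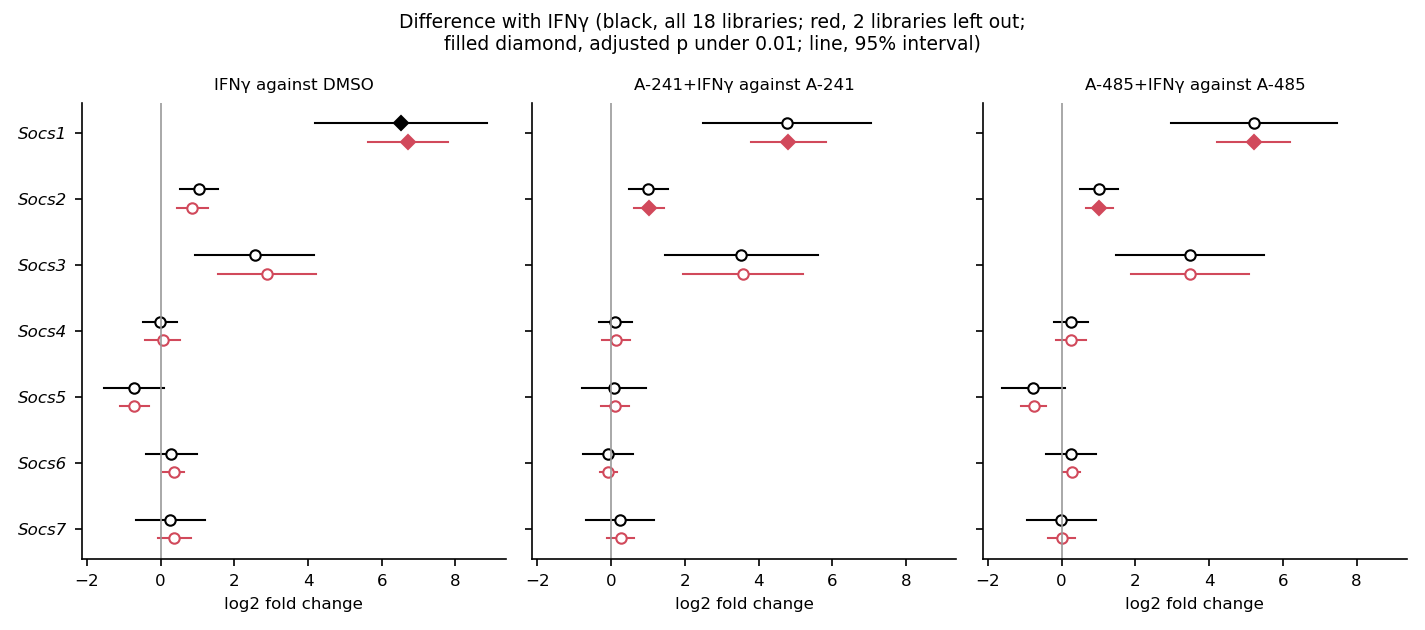
Log2 fold change with IFNγ for the 7 tested members, without inhibitor and within each inhibitor, with 95% intervals as lines, all 18 libraries in black and the 2 libraries left out in red, and filled diamonds where adjusted p was under 0.01. Socs1 is at 6.51, 4.78 and 5.21 in black and at 6.71, 4.81 and 5.21 in red, whereas Socs4 lies near 0 in all 3 panels.

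Socs2 (ENSMUSG00000020027, chr10:95385362-95417180, minus strand), a brake on growth hormone signalling, showed a smaller difference with IFNγ that was similar in size in the 3 settings. Its level was 11, 13.3 and 5.53 CPM in DMSO and 20.6, 18.2 and 24.0 CPM in IFNγ, and the groups did not overlap. A-241 gave 6.94, 7.21 and 6.11 CPM and A-241+IFNγ 12.8, 13.9 and 14.2 CPM, also without overlap. A-485 gave 12.0, 7.63 and 10.5 CPM and A-485+IFNγ 19.7, 18.5 and 22.6 CPM. The log2 differences with IFNγ were 1.04 ± 0.24, 1.01 ± 0.25 and 1.01 ± 0.24, with adjusted p of 0.034, 0.183 and 0.0531. The last 2 passed with the libraries left out (1.03 ± 0.19, 0.00736, and 1.02 ± 0.17, 0.00116), and the first did not (0.86 ± 0.20, 0.0184).

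All A-241 libraries of Socs2 lay below those of A-485, both with and without IFNγ. A-241 against A-485, at 250 and 1000 nM, was -0.57 ± 0.26 (95% interval -1.11 to -0.03, adjusted p = 0.579), and with IFNγ -0.57 ± 0.24 (-1.07 to -0.07, 0.634). Against DMSO it was -0.59 ± 0.26 with A-241 (0.175), and -0.88 ± 0.21 (0.00661) with the 2 libraries left out. With A-485 the difference was -0.02 ± 0.25 (-0.55 to 0.51). Against IFNγ it was -0.62 ± 0.24 with A-241 (0.137) and -0.05 ± 0.23 with A-485 (-0.54 to 0.44). Those values became, with the 2 libraries left out, -0.71 ± 0.18 (0.0107) and -0.14 ± 0.17 (0.649).

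Cish (ENSMUSG00000032578, chr9:107296026-107302784, plus strand), a STAT5 target and inhibitor, was close to the floor in all conditions. Its libraries ranged from 0 to 3.02 CPM, with 10 counts summed over DMSO, 4 over A-241, 19 over A-485, 23 over IFNγ, 15 over A-241+IFNγ and 19 over A-485+IFNγ. The pooled ratio of IFNγ to DMSO was 1.87, with an exact binomial 95% interval of 0.855 to 4.39, an interval that includes 1. For A-241+IFNγ against A-241 it was 3.49 (1.11 to 14.4), 15 counts against 4. All 3 libraries of the first lay above those of the second, as did those of 6.08% of genes tested. That interval leaves out the spread between libraries, and edgeR without the filter gave 1.71 ± 1.00 (unadjusted p = 0.0821), which was not called. For A-241 against A-485 the pooled ratio was 0.221 (0.0547 to 0.665), where 1 A-485 library held 13 of the 19 counts. There edgeR without the filter gave -2.13 ± 0.96 (unadjusted p = 0.028, adjusted p = 0.947), which was not called. Cish shares exonic bases with the antisense genes Gm17040 and Gm17041, both with 0 counts in every library. No other member overlaps another gene's exons.

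Socs5 (ENSMUSG00000037104, chr17:87107679-87137839, plus strand), linked to EGF receptor and IL-4 receptor signalling, was lower with A-241. Its level was 21.3, 26.7 and 65.0 CPM in DMSO and 8.83, 11.2 and 9.69 CPM in A-241. All A-241 libraries lay below all DMSO libraries, as did those of 13.4% of genes tested, and the highest DMSO value was replicate 3. It fell with A-241 by 1.90 on the log2 scale (SE 0.40, 95% interval -2.76 to -1.05, adjusted p = 0.00658). Without DMSO replicate 3 the value was -1.27 ± 0.33 (0.0277), and without any one A-241 library the call was also lost (up to 0.0358). Limma-voom gave -1.69 (0.0135), and a fit of only these groups -1.97 (0.0655). With DMSO replicate 3 and IFNγ replicate 2 both left out it was -1.31 ± 0.18 (4.29e-05).

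Socs5 stood at 17.8, 20.4 and 14.9 CPM in A-485, below every DMSO library, with a difference of -1.06 ± 0.39 (adjusted p = 0.223). With the 2 libraries left out it was -0.47 ± 0.17 (0.146). In IFNγ it was 15.1, 39.0 and 14.3 CPM, with replicate 2 alone inside the DMSO range, and the difference was -0.73 ± 0.38 (0.657). It was -0.10 ± 0.32 without DMSO replicate 3, -1.32 ± 0.34 without IFNγ replicate 2 (0.0475), and -0.72 ± 0.19 (0.0361) without both. The combined groups were narrow, at 10.9, 9.46 and 11.3 CPM in A-241+IFNγ and 11.1, 10.8 and 9.31 CPM in A-485+IFNγ, and overlapped each other and A-241. Against DMSO, A-241+IFNγ was lower, at -1.81 ± 0.40 (0.00835), a call lost without DMSO replicate 3 (-1.18 ± 0.33, 0.0417), without any one A-241+IFNγ library (up to 0.0451), with limma-voom (0.0162), in a fit of these groups only (0.0828) and with the replicate number as a block (-1.79 ± 0.41, 0.0156). With the 2 libraries left out it was -1.21 ± 0.18 (8.87e-05). A-485+IFNγ was at -1.83 ± 0.40 (0.0122), and passed without DMSO replicate 1 (-2.11, 0.00552) and with the 2 libraries left out (-1.23 ± 0.18, 0.0001). Against IFNγ the differences were -1.08 ± 0.40 with A-241 (0.124) and -1.10 ± 0.40 with A-485 (0.204). They were, with the 2 libraries left out, -0.49 ± 0.18 (0.0822) and -0.51 ± 0.18 (0.0875).

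Between the compounds, Socs5 differed without IFNγ by -0.84 ± 0.40 (A-241 at 250 nM against A-485 at 1000 nM, 95% interval -1.69 to 0.02, adjusted p = 0.631), and with the 2 libraries left out by -0.84 ± 0.17 (0.00635). With IFNγ the difference was 0.02 ± 0.41 (-0.85 to 0.89), an interval that still spans changes of either sign.

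Socs4 (ENSMUSG00000048379, chr14:47276931-47296102, plus strand), the nearest relative of Socs5, varied little. It ranged from 8.78 CPM in an A-485 library to 16.6 CPM in DMSO replicate 3, with means of 13.1 ± 3.06 in DMSO, 12.2 ± 1.81 in A-241, 9.55 ± 0.933 in A-485, 12.8 ± 2.52 in IFNγ, 13.2 ± 1.99 in A-241+IFNγ and 11.3 ± 1.54 in A-485+IFNγ (SD, n = 3). Its largest difference over the 11 pairwise contrasts was -0.43 ± 0.22 with A-485 against DMSO (95% interval -0.89 to 0.03). The difference with IFNγ was -0.02 ± 0.21 (-0.48 to 0.43). Without the 2 libraries these were -0.27 ± 0.21 and 0.05 ± 0.22.

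**Figure D4:**
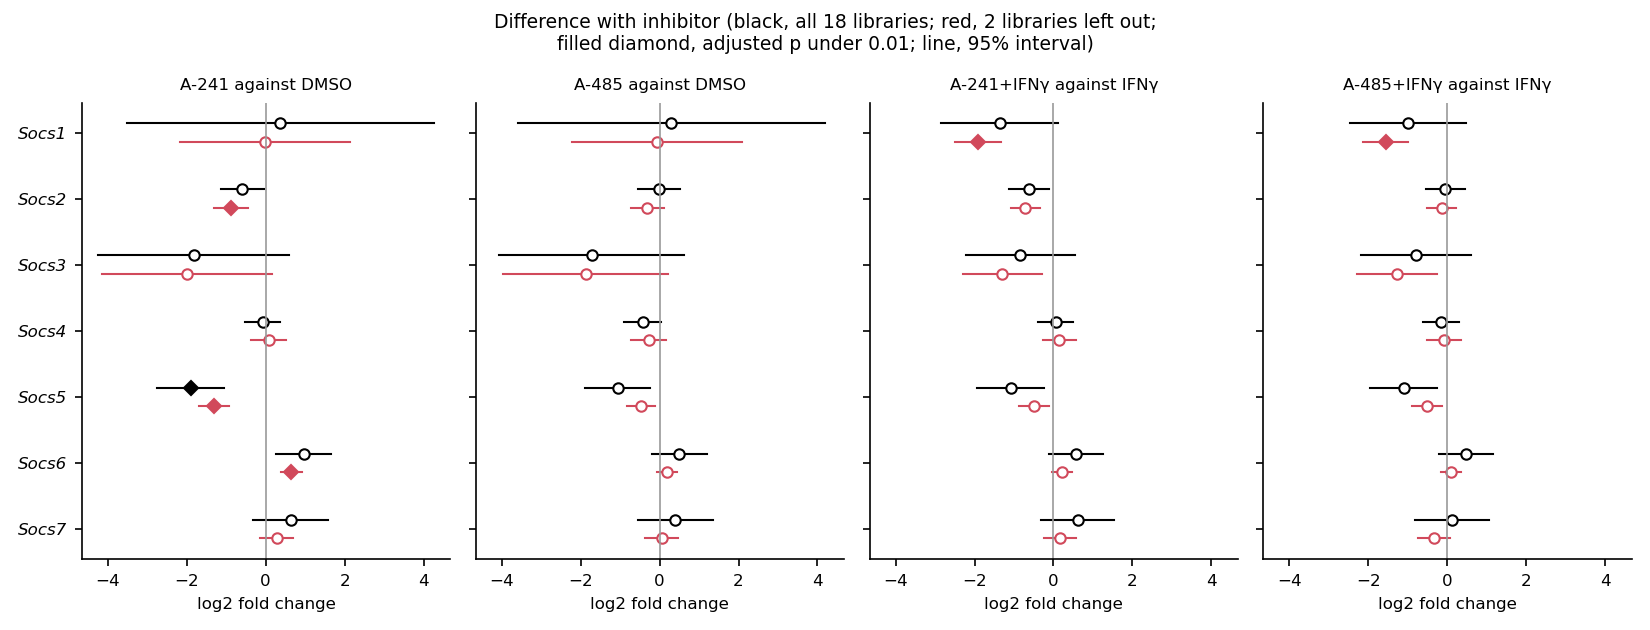
Log2 fold change with each inhibitor for the 7 tested members, against DMSO and, with IFNγ, against IFNγ, with 95% intervals as lines, all 18 libraries in black, the 2 libraries left out in red, and filled diamonds where adjusted p was under 0.01. With all libraries Socs5 with A-241 is the filled point (-1.90). With the 2 left out Socs2, Socs5 and Socs6 are filled for A-241 against DMSO, and Socs1 is filled in both IFNγ panels (-1.91 and -1.57).

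Socs6 (ENSMUSG00000056153, chr18:88665224-88927481, minus strand), which binds KIT and insulin receptor substrates, stood higher in the inhibitor libraries, but no such difference passed over all 18 libraries. It stood at 33.5, 36.2 and 15.5 CPM in DMSO, 56.2, 55.3 and 56.9 CPM in A-241, and 38.5, 42.4 and 41.1 CPM in A-485. All A-241 libraries exceeded all A-485 libraries, and these exceeded all DMSO libraries. In IFNγ it was 42.3, 14.3 and 48.1 CPM, in A-241+IFNγ 48.5, 58.1 and 50.7 CPM, and in A-485+IFNγ 48.8, 48.5 and 48.8 CPM. The difference for A-241 against DMSO was 0.96 ± 0.33 (adjusted p = 0.0799), and it passed with the 2 libraries left out (0.65 ± 0.12, 0.00131). A-485 against DMSO was 0.50 ± 0.33 (-0.19 to 1.19, 0.574), and was not called with the 2 libraries left out. A-241+IFNγ against DMSO was 0.87 ± 0.33 (0.123), and 0.57 ± 0.12 (0.00392) with them left out. A-241 against A-485 was 0.46 ± 0.32 (-0.22 to 1.15, 0.869), at 250 and 1000 nM.

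Socs7 (ENSMUSG00000038485, chr11:97362551-97398542, plus strand), linked to insulin receptor substrates and nuclear shuttling of Nck, passed no test. Its level was 26.1, 42.6 and 13.1 CPM in DMSO, 38.3, 40.1 and 51.0 CPM in A-241, 36.9, 36.8 and 36.2 CPM in A-485, and 48.7, 8.04 and 41.8 CPM in IFNγ. Both low values, 13.1 and 8.04 CPM, belonged to the libraries that stood apart. In the combined groups it was 45.7, 62.8 and 44.3 CPM with A-241 and 40.8, 36.5 and 31.9 CPM with A-485. A-241 against DMSO was 0.63 ± 0.45 (95% interval -0.31 to 1.58), and A-241+IFNγ against A-485+IFNγ was 0.49 ± 0.44 (-0.45 to 1.42). With the 2 libraries left out these were 0.28 ± 0.20 (-0.14 to 0.70) and 0.50 ± 0.18 (0.13 to 0.86, adjusted p = 0.188).

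Counted over the family, the IFNγ response within A-241 gave 0 calls in 7 with edgeR (0.192% of all genes), 3 at an unadjusted p under 0.05 (3.74% of genes), 1 with DESeq2 and 0 with limma-voom. Within A-485 it gave 0 (0.802%), 3 unadjusted (5.83%), 2 with DESeq2 and 0 with limma-voom. A-241+IFNγ against IFNγ gave 0 (4.09%), 2 unadjusted (20.2%) and 0 with DESeq2 or limma-voom, and A-485+IFNγ against IFNγ gave 0 (0.552%), 1 unadjusted (14.7%) and 0 with either tool. Against DMSO, A-241+IFNγ had Socs1 higher (0.894% of all genes higher) and Socs5 lower (3.44% lower), and A-485+IFNγ had Socs1 higher (0.894% higher, 1.45% lower). A-241 against A-485 gave 0 calls without IFNγ (0.368%) and with it (0.518%), 1 unadjusted each (8.15% and 6.5%), and 0 with DESeq2 or limma-voom. The interactions gave 0 calls for A-241 (0.0334%) and A-485 (0%), 0 unadjusted (3.35% and 4.17%), and 0 with either tool. At an adjusted p under 0.05 the counts were 2 with IFNγ (1.71% of genes), 1 for the IFNγ response within A-485 (1.18%) and 3 for A-485+IFNγ against DMSO (4.39%).

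With DMSO replicate 3 and IFNγ replicate 2 left out, 12135 genes were tested and more members passed. IFNγ against DMSO gave 1 higher and 0 lower (1.62% and 0.412% of genes), A-241 against DMSO 1 higher and 2 lower (1.61% and 6.52%), and A-485 against DMSO 0 (2.46%), with 1 at an unadjusted p under 0.05 (16.8%). A-241+IFNγ and A-485+IFNγ against IFNγ gave 1 lower each, Socs1, where 5.88% and 2.37% of genes were lower and 1.94% and 0.313% higher. The IFNγ response within A-241 and within A-485 gave 2 higher each, Socs1 and Socs2, where 0.437% and 1.4% of genes were higher and 0.0412% and 0.272% lower. A-241+IFNγ against DMSO gave 2 higher and 1 lower (1.88% and 5.39%), and A-485+IFNγ against DMSO 1 higher and 1 lower (1.48% and 2.75%). A-241 against A-485 gave 1 lower, Socs5 (1.48% lower, 0.247% higher), and with IFNγ 0 (1.29%), with 2 unadjusted (13.4%). The interactions gave 0 for A-241 (0.14%), with 2 unadjusted (8.79%), and 0 for A-485 (0.0247%), with 0 unadjusted (13.2%).

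Some members separated the 3 libraries of each group completely, in numbers to be read against the share of all genes that did so. With IFNγ Socs1 and Socs2 were higher without overlap (4.16% of genes) and none lower (3.69%). With A-241 Socs6 was higher (13.3%) and Socs5 lower (13.4%), and with A-485 Socs6 was higher (7.07%) and Socs4 and Socs5 lower (8.84%). Against IFNγ, Socs6 was higher in A-241+IFNγ (11.7%) and A-485+IFNγ (10.6%), Socs2 and Socs5 were lower in the first (12.1%) and Socs5 in the second (10%).

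Within A-241, IFNγ separated Socs1, Socs2 and Socs3 of the 7 tested members upward (6.08%) and none downward (7.2%), and within A-485 it separated Socs1, Socs2, Socs3 and Socs6 upward (9.49%) and Socs5 downward (8.5%). Against DMSO, Socs1, Socs6 and Socs7 were higher in A-241+IFNγ (12.7%) and Socs5 lower (13.6%), and Socs1, Socs2, Socs3 and Socs6 were higher in A-485+IFNγ (10.7%) and Socs5 lower (10.5%). Between the compounds, A-241 gave higher Socs6 and Socs7 (11.2%) and lower Socs2 and Socs5 (11.3%) than A-485, and with IFNγ higher Socs7 (7.96%) and lower Socs2 (11.8%), at the doses above.

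By the smallest root mean square difference over the 6 condition means of log2 CPM, each gene centred on its own mean, the gene nearest to Socs1 was Irf1, the transcription factor that carries much of the IFNγ response (0.199). F830016B08Rik (0.522) and Ifit1, an antiviral RNA-binding protein (0.627), came next. The genes nearest to Socs5 were Hyal1 (0.0721), a hyaluronidase, Tnni2 (0.12), a troponin subunit, and Hyal3 (0.136). Hyal1 and Hyal3 overlap each other in GENCODE and can share reads. These are descriptions over 6 means that include the libraries that stood apart. In a calculation added after seeing the data, without those libraries, F830016B08Rik was nearest to Socs1 (0.263), Irf1 was at 0.356 and Ifit1 at 0.987. Near Socs5, Hyal1 was then at 0.172, Tnni2 at 0.382 and Hyal3 at 0.164, and Cic was nearest (0.103).

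**Figure D5:**
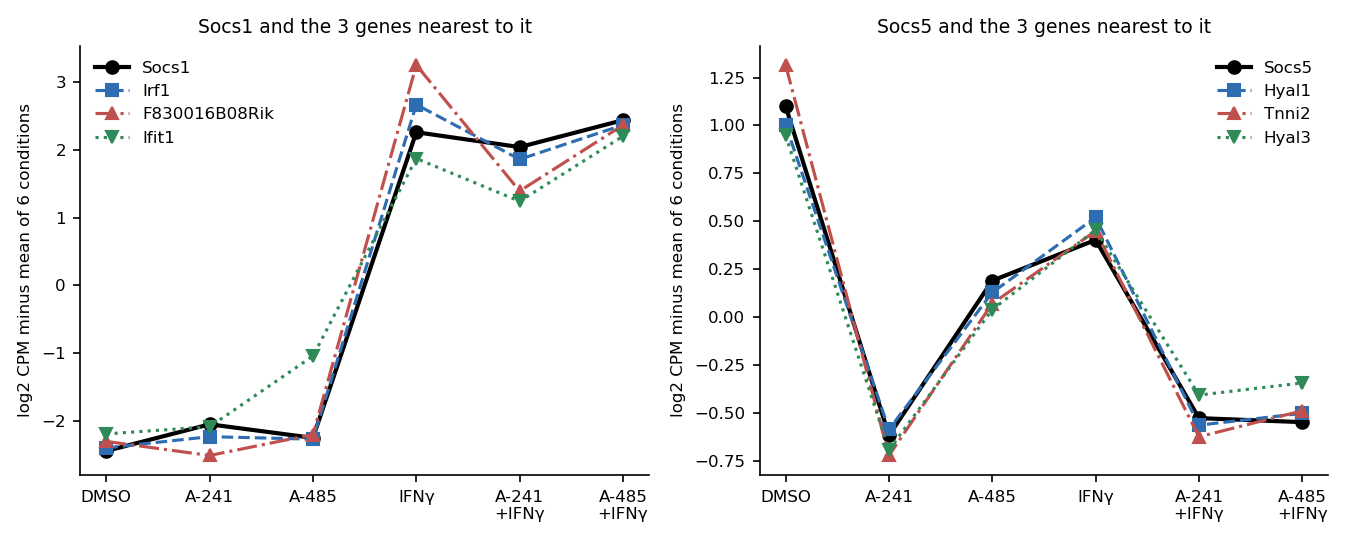
Over all 18 libraries, mean log2 CPM in each of the 6 conditions (n = 3 each), minus the gene's own mean over them, for Socs1 and Socs5 and the 3 genes nearest to each; lines only link the points of a gene. Irf1 tracks Socs1 with a root mean square difference of 0.199, and Hyal1 tracks Socs5 with 0.0721.

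Upstream of the SOCS proteins, 14 of 15 IFNγ receptor, JAK and STAT genes were tested. Among those that IFNγ raised were Irf1 (5.05 on the log2 scale, adjusted p = 3.52e-08) and Stat2 (2.50, 2.45e-06). Irf1 was at 11.4 to 23.4 CPM in DMSO and at 409 to 820 CPM in the 3 IFNγ libraries, including replicate 2, where Socs1 was at 1.19 CPM. In A-241+IFNγ against IFNγ, Stat2 was lower (-1.05, 0.00413), and in A-485+IFNγ it was at -0.64 (0.138). Of a list of 14 IFNγ targets all 14 rose with IFNγ, 12 were lower in A-241+IFNγ than in IFNγ, and 4 in A-485+IFNγ, where 3.54% and 0.535% of all genes were lower. Without the 2 libraries that stood apart 14 and 12 were lower, where 5.88% and 2.37% of all genes were lower. DESeq2 gave 12 and 8 over all libraries. This list shares members with the receptor list, Irf1 among them. Igtp (5.72 with IFNγ, 1.5e-10, then -2.98 with A-241, 1.68e-07), Gbp2 (6.08, 1.5e-10, then -2.01, 4.48e-06) and Cxcl10 (7.48, 3.52e-08, then -2.97, 3.61e-05) are further members, given as log2 differences with adjusted p.

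Of 13 other negative regulators of the pathway tested, 0 were called with IFNγ by edgeR or limma-voom, 1 by DESeq2, and 3 had an unadjusted p under 0.05. The shares of all genes under that p or called by DESeq2 were not counted, so these numbers have no background beside them. Usp18, which displaces JAK1 from the type I interferon receptor, was at 1.25 (0.0172). Cblb, a ubiquitin ligase, was the 1 called in A-241+IFNγ against IFNγ (-1.63, 0.0013), and its level was 15.5 ± 3.46 CPM in IFNγ and 5.07 ± 0.288 CPM in A-241+IFNγ (SD, n = 3). The 6 partners that form the SOCS box ubiquitin ligase gave 0 calls with A-241 against DMSO by edgeR or limma-voom, and 1 by DESeq2 and at an unadjusted p under 0.05, again without a counted share of all genes. Cul5, the cullin of that ligase, was at 0.67 ± 0.16 with A-241 (0.0154), and passed with the 2 libraries left out (0.56, 0.00817).

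Among 13 tested receptors and receptor substrates that SOCS proteins bind, of 18 listed, A-241 lowered 3 and A-485 1, where 3.53% and 0.619% of all genes were lower. These became 6 and 2 of 14 tested with the 2 libraries left out. Lifr, the LIF receptor chain, fell by 2.07 with A-241 (0.000135) and by 2.55 with A-485 (0.000179). Prlr, the prolactin receptor, fell by 2.74 with A-241 (9.73e-06), and Irs1, an insulin receptor substrate, by 3.23 (0.000131). IFNγ raised Ifnar2, a type I interferon receptor chain, by 1.16 (0.0015). Of 8 tested genes listed as STAT3 or STAT5 targets beside Socs2, Socs3 and Cish, A-241 lowered 3, Ccnd1 (-2.23, 7.54e-08), Bcl3 (-2.40, 0.000289) and Bcl2l1 (-1.05, 0.00719), and A-485 lowered Ccnd1 (-1.63, 1.85e-05). Leaving out the 2 libraries gave 5 lower for A-241 (6.52% of all genes lower) and 1 for A-485 (2.46% called in either direction). With IFNγ 0 of the 8 were called by edgeR or limma-voom, 1 by DESeq2, and 2 had an unadjusted p under 0.05. Shares of all genes by DESeq2 or under that p were not counted for this contrast. The 8 mesenchymal markers, 6 of them above 1 CPM in every library, summed to 736 to 779 CPM in DMSO and 443 to 505 CPM in A-241, where Socs5 was also lower. The 10 epithelial markers summed to 975 to 1367 CPM in DMSO and 824 to 943 CPM in A-241. The part of either list in that result was not tested.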

How the data were processed

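RNA from AT3 cells was made into 3′ mRNA-seq libraries (QuantSeq, 75-base single-end reads), 3 per condition in 6 conditions. What was deposited is a table of unnormalized counts, 1 column a library. Per the study's methods and processing notes, the authors demultiplexed with bcl2fastq 2.17.1.14, checked reads with FastQC 0.11.5, trimmed with cutadapt 1.7, aligned to mm10 with HISAT2 2.1.0 and counted with featureCounts, letting a read count for overlapping genes. Strand setting was not given in the sources used here.

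Identifiers were matched to symbols (42462 of 43629, 97.3%) and to GENCODE vM21. Genes were filtered by filterByExpr, and 11964 were fitted with edgeR 4.0.16 (R 4.3.3) by a quasi-likelihood model with TMM factors (0.792 to 1.11), a mean per condition and no covariates. P-values were adjusted by Benjamini-Hochberg over all genes, and calls were made under 0.01. The variation between libraries, which edgeR names the biological coefficient of variation (common BCV), came to 0.263 and may be technical alone. Fold changes carry SEs derived from the test statistic and 95% intervals. Log2 CPM used a prior count of 2. No pair of replicates agreed within sampling noise (chi-square per degree of freedom 2.18 to 139 over 18 pairs). Scripts were tested on simulated data.

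All 8 members are named. From each other list at most 4 genes are named, those called in the most of 13 comparisons, ties by smallest p, and for each called member the 3 genes nearest in pattern. Members and lists were chosen with earlier results of these data known. Alternatives were DESeq2 1.42.0, limma 3.58.1 voom (the study's model), other filters and scalings, a replicate block, 2 surrogate variables (sva 3.50.0), fits of only the groups compared, an adjusted p of 0.05, the 2 Gm42418-rich libraries left out, and each library left out. Promoter sequences are RefSeq's (GRCm38.p6), with windows of 250 bases. One gene that the naming rule selects is not reported here. Deviations of same-numbered libraries correlated above 0.1 in all 3 pairs for DMSO with each combined group (0.12 to 0.48) and for no other groups. This comes from the data and not the labels, and does not establish a pairing.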

Additional observations from a re-analysis of the deposited data

How the results depend on the processing

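No member changed sign where it was called. Over the 11 alternatives other than leaving out a library, 903 single values kept their side of the threshold, 52 newly passed and 12 no longer did, and over leaving out 1 library 606, 2 and 22. The numbers of members called moved as follows, and the cause was not tested. Shares of all genes called, given above, cover the main fit, an adjusted p under 0.05 and the 2 libraries left out. They were not counted for the other alternatives, so those numbers cannot be told apart from a change over all genes. Against main counts of 1 (IFNγ against DMSO), 1 (A-241), 2 (A-241+IFNγ against DMSO) and 1 (A-485+IFNγ against DMSO), limma-voom gave 0 in each. DESeq2 gave 2 for IFNγ, 1 for the IFNγ response within A-241, 2 within A-485 and 3 for A-485+IFNγ against DMSO. With an adjusted p under 0.05 the counts were 2 for IFNγ, 1 within A-485 and 3 for A-485+IFNγ against DMSO. With no filter they were 1 within A-241, 1 within A-485 and 2 for A-485+IFNγ against DMSO, and with at least 10 counts in every library, which removed Socs1, 0 for IFNγ, 1 for A-241+IFNγ and 0 for A-485+IFNγ against DMSO. Total-count scaling gave 1 and 2 for those states. Adjustment for 2 surrogate variables gave 4 for IFNγ, 3 for A-241, 3 for A-241+IFNγ against IFNγ, 3 within A-241, 3 within A-485, 5 for each combined state against DMSO and 2 for A-241 against A-485. With both Gm42418-rich libraries left out the counts were 3 for A-241, 1 for each combined state against IFNγ, 2 within each inhibitor, 3 for A-241+IFNγ and 2 for A-485+IFNγ against DMSO, and 1 for A-241 against A-485. Fits of only the groups compared gave 0 for IFNγ, where Socs1 did not pass the filter, 0 for A-241, 1 within A-241, 3 within A-485 and 1 for A-241+IFNγ against DMSO. Leaving out 1 library gave 0 to 1 for IFNγ, A-241, both combined states against DMSO and A-241+IFNγ against IFNγ, and 0 to 0 for the rest.

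Over the 6 conditions the deviations did not show that replicate numbers pair the samples. Of 45 same-numbered pairs 15 had deviations correlated above 0.1 (range -0.80 to 0.48), and 3 of 18 libraries correlated best with their own number. With the number as a replicate block the counts were 1 for IFNγ, 0 for A-241, 0 for A-241+IFNγ against DMSO and 0 for A-485+IFNγ against DMSO. In the last 2 contrasts all 3 same-numbered pairs correlated above 0.1 (0.12 to 0.48), and in no other contrast did all 3. The DMSO deviations include replicate 3, which stood apart, and the 2 combined groups correlated with each other at -0.12 to 0.14. The check therefore cannot decide which samples, if any, were paired. The block changed no other call. Depth limits Socs1 and Socs3 without IFNγ, and Cish throughout. Counts a library ran from 0 to 19 over these, and from 0 to 13 for Cish.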
